A study of Mus musculus with 6 samples.

Results

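The 9 genes described here encode complement components and the receptors for their cleavage products. They are the rows of the authors' deposited TPM table whose gene symbol is C3, Cfb, Cfp, C1qa, C1qb, C1qc, C3ar1, C5ar1 or C5ar2, and all 9 were found among 25124 genes. RNA was sequenced from the mouse macrophage line RAW264.7 in 2 groups of 3 samples. M1 cells were treated with 100 ng/ml lipopolysaccharide (LPS, sensed by Toll-like receptor 4 as a sign of bacteria) and 50 ng/ml interferon-γ, and M0 cells were left without both. Both groups belong to a control line that was given a Cas9 plasmid lacking a guide RNA, made for comparison with an E4BP4 knockout, and both grew in medium with 25 mM glucose. The sources used here do not state the length of treatment or whether the line was 1 clone.

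Complement is a cascade of plasma proteins that marks microbes and dying cells for uptake and calls in leukocytes. In the classical pathway C1q, built from the chains A, B and C, binds a target and carries the proteases C1r and C1s. In the alternative pathway factor B, encoded by Cfb, joins activated C3 to form an enzyme that cleaves more C3, and properdin, encoded by Cfp, stabilises that enzyme. Cleavage of C3 and C5 releases the anaphylatoxins C3a and C5a, which act on the receptors encoded by C3ar1, C5ar1 and C5ar2. The liver makes most circulating complement, while macrophages are a main source of C1q and also make properdin and C3.

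Libraries held 18666940 to 20283180 reads in genes in M1 and 15615639 to 18110568 in M0. TPM corrects read numbers for transcript length and library depth, so levels of different genes can be compared. The labels do not state that replicates came from separate cultures, and the spread behind the p-values may thus be technical. Of 8 macrophage markers all passed the filter in these samples, and their summed level was 1836 to 1874 TPM in M1 and 2165 to 2394 TPM in M0. Lyz2 was the most abundant, at 654 to 699 TPM in M1 and 1017 to 1159 TPM in M0. Adgre1 had 66.3 to 68.3 TPM in M1 and 2.15 to 3.08 TPM in M0. On the TPM scale Adgre1, Fcgr1, Mertk and Ptprc were higher in M1, and Lyz2, Cd68, Itgam and Csf1r were lower. The summed level of 17 markers of T cells, B cells, epithelium, fibroblasts, endothelium and neutrophils was 4.94 to 5.54 TPM in M1 and 6.42 to 7.50 TPM in M0. Most of it was S100a8, the other 16 stayed at or below 0.922 TPM in every library, and Cd3g, Krt18 and Mpo were listed at 0 throughout. The treatment was visible in Nos2, the inducible nitric oxide synthase, at 522 to 621 TPM in M1 and 0.134 to 0.209 TPM in M0.

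Comparing M1 with M0 asks which transcripts differ after LPS and interferon-γ. C3 and Cfb rose by large factors, the 3 C1q chains and C3ar1 rose 1.28-fold to 2.0-fold, and C5ar1 and C5ar2 fell. Cfp fell on the TPM scale only. The groups did not overlap for any of the 9 members, and 81.4% of the 11297 tested genes showed the same separation. At an adjusted p under 0.05 (limma on log2(TPM + 1), Benjamini-Hochberg over all tested genes), 6 members were higher and 3 were lower, against a background of 18.7% of tested genes called higher and 61.5% called lower, 80.2% in all. A call as such therefore sets no member apart, and the sizes of the differences carry the description. All 9 passed the filter of 1 TPM in at least 3 samples, Cfb through M1 only and C5ar2 through M0 only, so these 2 could pass only by differing. Their calls are included in these and later counts of members and are a description only.

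Over all tested genes the median log2 difference in TPM was -0.31, so a gene with no relative change appears lower in M1. After division of TPM by median-of-ratios factors that median was 0.0035, and 6 members were higher and 2 lower, against 36.9% and 36.6% of tested genes. The member that lost its call was Cfp. Of the macrophage markers lower on the TPM scale, Cd68 was no longer lower after rescaling (log2 difference 0.09, limma adjusted p = 0.238). Lyz2, Itgam and Csf1r stayed lower, with smaller log2 differences of -0.30, -0.24 and -0.15. The 9 members had a median log2 difference of 0.51 as deposited and 0.86 after rescaling. These are bulk samples, in which fewer cells of a kind and less RNA per cell cannot be told apart.

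**Figure D1:**
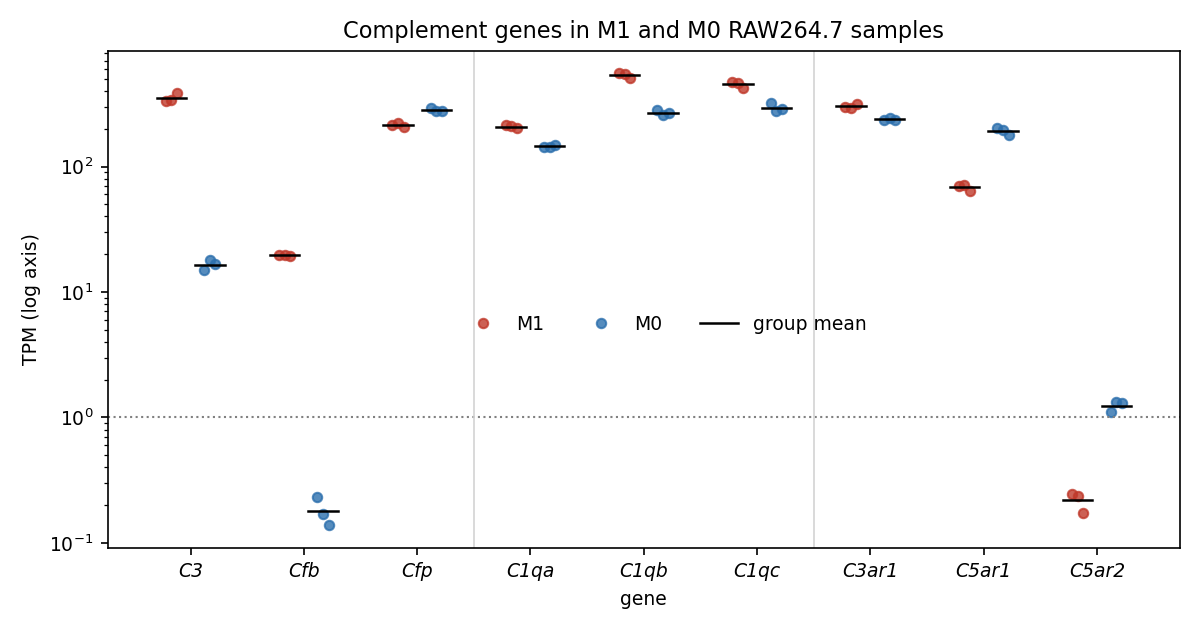
TPM of each of the 9 genes in every sample on a log axis, with the 3 M1 samples left of the 3 M0 samples, a black line at each group mean and a dotted line at 1 TPM. C3 and Cfb sit far higher in M1, C5ar1 and C5ar2 sit lower in M1, and no gene has overlapping groups.

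C3, the central component that all pathways cleave, had 334, 342 and 382 TPM in M1 replicates 1 to 3, against 15.0, 17.8 and 16.7 TPM in M0 replicates 1 to 3. Every M1 sample lay far above every M0 sample, and the M1 replicates differed among themselves by less than the smallest gap between the groups. The means were 353 ± 25.6 TPM in M1 and 16.5 ± 1.44 TPM in M0 (mean ± SD with n = 3, as throughout), a ratio of 21.4. The fitted log2 difference was 4.34 (SE 0.07, limma adjusted p = 6.56e-13), and it was 4.68 after rescaling. C3 (NM_009778) lies on the minus strand of chromosome 17 from 57203967 to 57228136 in mm10, with Gpr108 and Tnfsf14 on its sides. Gpr108 had 45.4 TPM in M1 and 34.6 TPM in M0 on average, and Tnfsf14 had 0.904 TPM in M1 and 4.69 TPM in M0, so neither neighbour showed a difference of the size seen in C3.

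C3 is the member with the largest level gained, and its upstream sequence is shown for that reason. Upstream sequence from RefSeq (GRCm38.p6) was used for 7 of the 9 members, without Cfb and C1qa, and the 250 bases before the start were searched on both strands for 6 motifs. These were the interferon-γ activated site (TTCNNNGAA), the core of the interferon-stimulated response element (GAAANNGAA), the ETS-IRF composite (GGAANNGAA), an NF-κB form (GGGNNTTCC), a C/EBP form (TTGCNNAA) and a PU.1 form (GAGGAAGT). The response element core and the composite differ by 1 base and can overlap. The forms were settled after others had been searched in the same windows, and which windows hold a match depends on the form. The window of C3, chr17:57228137-57228386 on the minus strand, holds 1 match, to the C/EBP form, shown in capitals. That form has a match in 9.56% of 32851 upstream windows of the same length. C/EBP factors are known for driving acute-phase genes, but whether this match acts on C3 was not tested.
C3: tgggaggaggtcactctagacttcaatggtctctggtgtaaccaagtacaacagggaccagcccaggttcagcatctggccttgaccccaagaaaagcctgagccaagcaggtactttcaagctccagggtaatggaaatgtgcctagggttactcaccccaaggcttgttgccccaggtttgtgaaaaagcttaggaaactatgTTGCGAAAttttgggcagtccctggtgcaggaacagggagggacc

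Cfb, a protease of the alternative pathway, had 19.8, 19.8 and 19.3 TPM in M1, against 0.233, 0.169 and 0.138 TPM in M0. The 3 M1 samples were nearly alike and M0 was close to nothing, with 10, 7 and 5 reads behind its values against 904, 930 and 806 reads in M1. The means were 19.6 ± 0.265 TPM in M1 and 0.180 ± 0.0484 TPM in M0, a ratio of 109. Cfb passed the filter through M1 only, so its fitted difference is given as a description. In log2(TPM + 1) that difference was 4.13 (SE 0.07), a scale that compresses changes of genes near 0. With a pseudocount of 0.1 it was 6.15, and the log2 fold change in the authors' deposited table was 7.10. Cfb (NM_008198, minus strand of chromosome 17, 34856374 to 34862514) is packed between other genes. The 3′ end of C2, which encodes the related protease of the classical pathway, lies 87 bases upstream of Cfb on the same strand, and C2 had 0.131 TPM in M1 and 0.052 TPM in M0. Nelfe, on the opposite strand with a gap of 1 base, had 52.1 TPM in M1 and 75.6 TPM in M0. The sources used here do not state whether reads were counted by strand.

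Cfp, which encodes properdin, had 215, 221 and 208 TPM in M1, against 291, 275 and 279 TPM in M0. It was an abundant transcript in both groups, and all M1 samples were below all M0 samples. The means were 215 ± 6.89 TPM in M1 and 282 ± 7.84 TPM in M0, and Cfp fell by 0.39 on the log2(TPM + 1) scale (SE 0.04, limma adjusted p = 8.24e-06). After rescaling the log2 difference was -0.04 (limma adjusted p = 0.452), while the log2 fold change in the authors' deposited table was -0.03 (adjusted p = 0.693). Relative to the shift of all genes Cfp was therefore not called. The ratio of C3 to Cfp within a sample, which no scaling of libraries can move, was 1.65 ± 0.167 in M1 and 0.0587 ± 0.0067 in M0, so the transcripts of these alternative pathway proteins changed order.

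**Figure D2:**
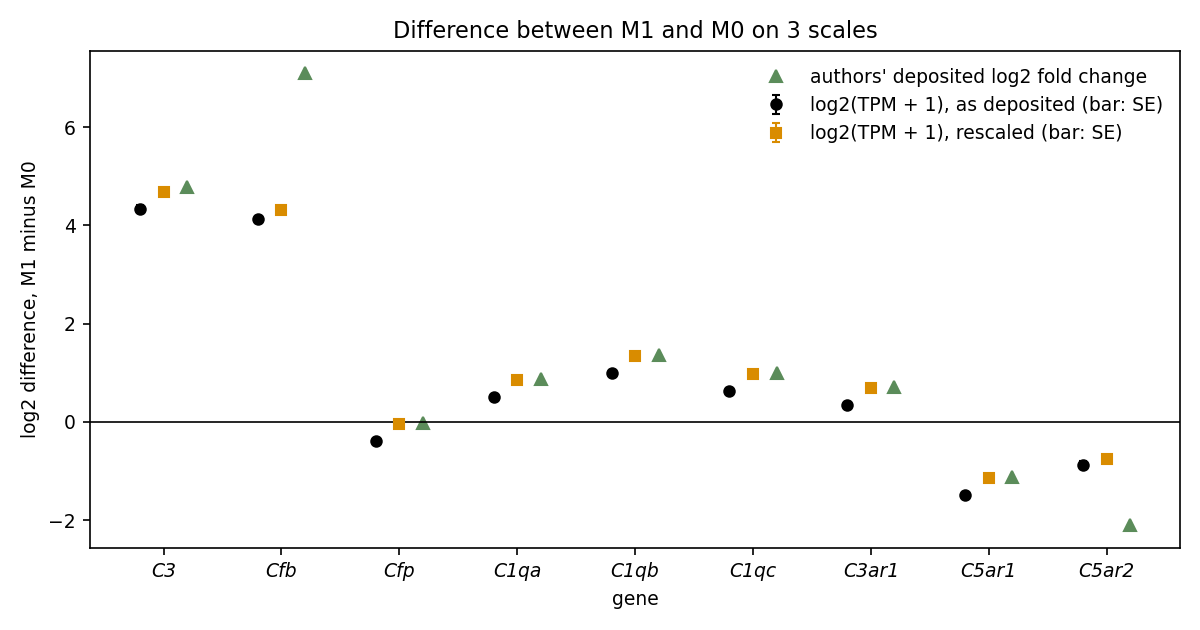
Log2 difference, M1 minus M0, of each member from limma on log2(TPM + 1) as deposited (circles), after median-of-ratios rescaling (squares) and from the authors' deposited table (triangles), with bars for the SE of the limma values, mostly shorter than the symbols. Cfp is the one member whose 3 values do not all stay clear of 0, and the scale matters most for Cfb and C5ar2, which are near 0 TPM in one group. For C5ar1 and C5ar2 the triangles rest on another transcript of the gene than the TPM values.

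The C1q chains rose together but not equally. C1qb, the B chain, had 553, 548 and 509 TPM in M1, against 255 to 284 TPM in M0, where replicate 1 was highest and replicate 2 lowest. C1qc, the C chain, had 474, 467 and 426 TPM in M1, against 319, 279 and 286 TPM in M0. C1qa, the A chain, had 214, 209 and 202 TPM in M1, against 144, 144 and 149.6 TPM in M0. Every chain was higher in each M1 sample than in any M0 sample, and M1 replicate 3 was the lowest M1 sample for all 3 chains. C1qb rose 2.0-fold, with a log2 difference of 1.00 (SE 0.05, limma adjusted p = 1.23e-08). C1qc rose 1.55-fold (log2 difference 0.63, SE 0.06, adjusted p = 2.04e-06) and C1qa rose 1.43-fold (log2 difference 0.51, SE 0.04, adjusted p = 6.14e-07), both in the same limma fit. After rescaling the log2 differences were 1.35 for C1qb, 0.97 for C1qc and 0.86 for C1qa.

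The ratio of the chains within a sample, free of any library scaling, differed between the groups for C1qb. The ratio of C1qb to C1qc was 1.17, 1.17 and 1.19 in M1, against 0.890, 0.914 and 0.925 in M0. C1qb was thus the more abundant of the 2 in every M1 sample and the less abundant in every M0 sample. The ratio of C1qb to C1qa averaged 2.57 ± 0.0495 in M1 and 1.84 ± 0.117 in M0. Both ratios gave p = 0.10 in a two-sided exact permutation test, the smallest that 3 samples against 3 allow, and 0.117 after adjustment over the 7 ratios computed. C1qc to C1qa was 2.19 ± 0.0665 in M1 and 2.02 ± 0.169 in M0, with overlapping groups and an exact permutation p of 0.20. These pairs were chosen with the values known.

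**Figure D3:**
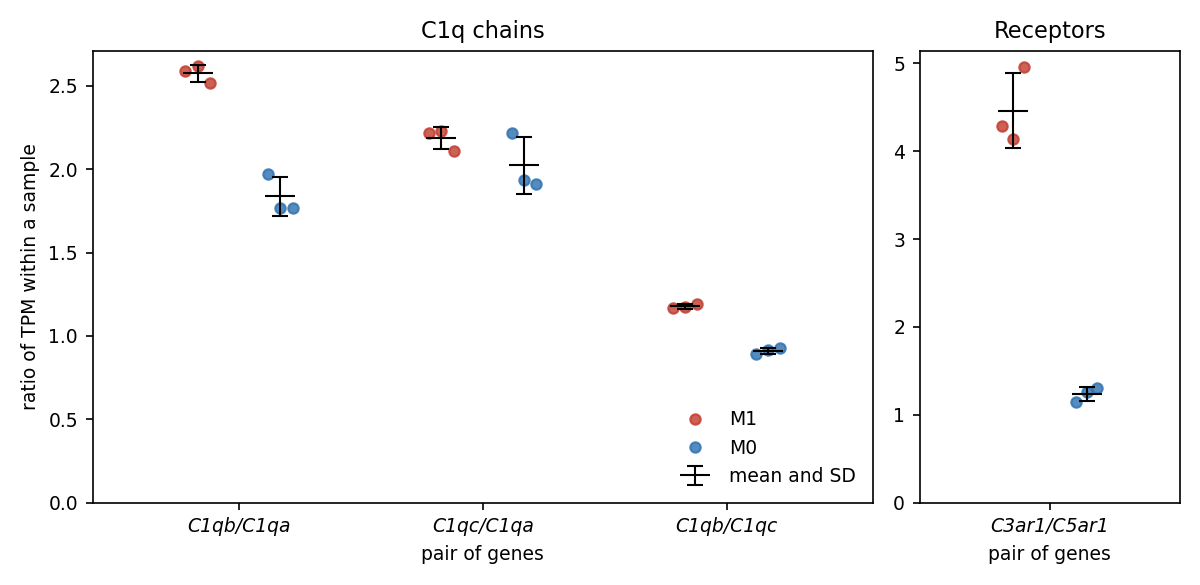
Ratio of TPM between 2 genes within each sample for the C1q chains (left) and the receptors C3ar1 and C5ar1 (right), with M1 left of M0 and the mean and SD in black. C1qb/C1qc lies above 1 in the 3 M1 samples and below 1 in the 3 M0 samples, C1qc/C1qa overlaps between groups, and C3ar1/C5ar1 is 4.14 to 4.95 in M1 and 1.15 to 1.31 in M0.

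The 3 chain genes lie side by side on the minus strand of chromosome 4. C1qb (NM_009777) spans 136880126 to 136886200, C1qc (NM_007574) 136889802 to 136892914 and C1qa (NM_007572) 136895916 to 136898844. The gaps between them are 3601 and 3001 bases, with no other listed gene in them. The genes on the outer sides, Epha8 and Ephb2, had at most 0.018 TPM in any library. Upstream windows are shown for C1qb and C1qc, the chains whose ratio changed order, at chr4:136886201-136886450 and chr4:136892915-136893164, both on the minus strand and read from RefSeq. The C1qc window holds 1 match to the PU.1 form on its reverse strand, in capitals, a form with a match in 2.44% of all upstream windows. The C1qb window holds the letters of none of the 6 motifs.
C1qb: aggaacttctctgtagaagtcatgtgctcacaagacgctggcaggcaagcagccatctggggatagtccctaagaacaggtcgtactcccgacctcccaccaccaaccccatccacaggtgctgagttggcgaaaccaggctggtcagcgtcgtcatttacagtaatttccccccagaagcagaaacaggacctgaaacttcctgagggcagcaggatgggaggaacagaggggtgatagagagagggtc
C1qc: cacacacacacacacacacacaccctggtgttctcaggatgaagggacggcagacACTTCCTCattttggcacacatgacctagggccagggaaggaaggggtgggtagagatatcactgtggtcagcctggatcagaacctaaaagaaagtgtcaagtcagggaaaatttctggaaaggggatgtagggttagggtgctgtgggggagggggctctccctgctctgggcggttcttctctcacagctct

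The receptors moved in opposite directions. C3ar1, the receptor for C3a, had 299.8, 295 and 318 TPM in M1, against 235, 245 and 235 TPM in M0. C5ar1, the G protein-coupled receptor through which C5a attracts and activates phagocytes, had 69.9, 71.2 and 64.2 TPM in M1, against 205, 195 and 179.6 TPM in M0. Each M1 sample was above every M0 sample for C3ar1 and below every M0 sample for C5ar1. C3ar1 rose 1.28-fold (log2 difference 0.35, SE 0.05, limma adjusted p = 2.60e-05), and its log2 difference was 0.70 after rescaling. C5ar1 was 2.82-fold lower in M1, at 68.4 ± 3.71 TPM in M1 and 193 ± 12.6 TPM in M0 (log2 difference -1.48, SE 0.06, limma adjusted p = 8.98e-10). After rescaling its log2 difference was -1.14. The ratio of C3ar1 to C5ar1 within a sample was 4.29, 4.14 and 4.95 in M1, against 1.15, 1.26 and 1.31 in M0. That ratio also gave p = 0.10 in the two-sided exact permutation test, and 0.117 after adjustment.

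C5ar2, the second C5a receptor, known for binding C5a without coupling to G proteins, was scarce throughout. It had 0.244, 0.238 and 0.172 TPM in M1, against 1.10, 1.33 and 1.30 TPM in M0. Those values rested on 14, 14 and 9 reads in M1 and on 59, 69 and 59 reads in M0. C5ar2 passed the filter through M0 only, so its difference is given as a description. The mean was 5.70-fold lower in M1 (difference of -0.88 in log2(TPM + 1), SE 0.08). The log2 fold change in the authors' deposited table, which lists another transcript of the gene, was -2.11, and a pseudocount of 0.1 in place of 1 gave -2.08. C5ar1 stood at 320 ± 46.9 times the level of C5ar2 in M1 and at 157 ± 26.1 times in M0, and the M1 ratio rested on those few reads.

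The receptor genes for C5a are neighbours on the minus strand of chromosome 7, with C5ar2 (NM_001146005) at 16234587 to 16242331, C5ar1 (NM_007577) at 16246743 to 16259540 and 4411 bases between them. The genes on the outer sides of the pair were Dhx34, at 2.36 TPM in M1 and 4.12 TPM in M0, and Inafm1, at 0.952 TPM in M1 and 5.41 TPM in M0. C3ar1 (NM_009779) lies on chromosome 6 from 122847140 to 122856157 and Cfp (NM_008823) on chromosome X from 20925454 to 20931555. The upstream windows of C3ar1 and Cfp, and the C5ar2 window whose start is that of the TPM table, hold none of the 6 motifs. The C5ar1 window, at a RefSeq start other than that of the TPM table, holds 1 match to the response element core, found in 7.13% of all upstream windows. A second C5ar2 window holds 3 matches, to the C/EBP form and the ETS-IRF composite, found in 9.56% and 6.99% of all upstream windows.

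The order of levels changed between the groups. In M1 it ran C1qb, C1qc, C3, C3ar1, Cfp, C1qa, C5ar1, Cfb and C5ar2, and in that order Cfp and C1qa overlapped in range while every other pair of neighbours was separate. In M0 it ran C1qc, Cfp, C1qb, C3ar1, C5ar1, C1qa, C3, C5ar2 and Cfb. There C1qc overlapped with Cfp and Cfp with C1qb, while the others were separate. C3 lay above C3ar1, Cfp and C1qa in M1 and below all of them in M0, whereas C5ar1 lay below C1qa in M1 and above it in M0.

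Likeness to other genes was measured as the Euclidean distance between log2(TPM + 1) values over the 6 samples after centring each gene on its mean. The nearest genes to C3 were Slfn5 and Parp14, at distances of 0.178 and 0.179. For Cfb they were the chemokines Ccl3 and Ccl2, at 0.132 and 0.164, although these stood at 3433 and 4340.5 TPM in M1 and at 188 and 232 TPM in M0. The profile nearest to C1qb was that of the class I gene H2-Q8 (0.0825), to C1qc that of Tspo (0.0643) and to C1qa that of Rnaseh2b (0.0418). Nearest to C3ar1 was Acsl5 (0.0371), to Cfp Clk2 (0.0375), to C5ar1 Cd84 (0.104) and to C5ar2 Nasp (0.0456). With 2 groups of 3, the distance mainly reflects the size of the group difference in log2(TPM + 1). That scale compresses changes near 0 TPM, so a near profile need not share the fold change. Nasp had 42.8 TPM in M1 and 78.1 TPM in M0, while C5ar2 was 5.70-fold lower in M1. The same limit holds for Cfb, and for Slfn5 with 0.244 TPM in M0.

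Of 47 other complement genes, 15 passed the filter, and 5 of these rose, 9 fell and 1 was not called on the TPM scale, against 6, 5 and 4 after rescaling. Over all tested genes 18.7% were called higher and 61.5% lower on the TPM scale, and 36.9% and 36.6% after rescaling, so the 9 lower calls are close to the background share. The median log2 difference of the 15 was -0.38 on the TPM scale, beside -0.31 over all tested genes. C1s1, C1rb and C1s2 passed the filter through M1 only and Cd93 and C8g through M0 only, so these 5 could pass only by differing, and their values are given as a description. The proteases of the C1 complex differed most. C1s1, which encodes C1s, had 17.4, 16.8 and 17.1 TPM in M1, against 0.110, 0.114 and 0.156 TPM in M0. The difference in C1s1 was 135-fold in mean TPM, with 16 reads over the 3 M0 libraries (log2 difference 4.01, SE 0.07). C1ra, which encodes C1r, had 29.3, 29.4 and 31.2 TPM in M1, against 8.83, 8.28 and 8.21 TPM in M0, and rose 3.55-fold (limma adjusted p = 2.36e-10). The ratio of C1ra to C1s1 was 1.75 ± 0.0693 in M1 and 68.5 ± 14.3 in M0, so C1ra was the more abundant in both groups. The M0 ratio rested on 5, 5 and 6 reads of C1s1, and its size is uncertain. C1rb and C1s2, close copies of C1ra and C1s1, had 1.92 ± 0.241 and 2.74 ± 0.342 TPM in M1, against 0.374 ± 0.166 and 0.725 ± 0.171 TPM in M0, and the split of reads between copies is uncertain.

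Of the tested lectin pathway genes, 3 fell on the TPM scale and 1 was not called. The scavenger collectin Colec12 fell to 129 ± 4.0 TPM in M1, against 219 ± 4.68 TPM in M0, and stayed lower after rescaling (log2 difference -0.41). Ficolin A, encoded by Fcna, and the lectin pathway protease gene Masp2 had log2 differences of -0.44 and -0.38, and neither was called after rescaling. Masp1 had 1.46 ± 0.249 TPM in M1 and 1.24 ± 0.206 TPM in M0 and was called higher after rescaling (log2 difference 0.34, limma adjusted p = 0.0107). Limma on the authors' deposited log2 columns, which list another transcript of the gene, also called it higher (log2 difference 0.48, adjusted p = 0.00888). The authors' own comparison, on that same other transcript, gave an adjusted p of 0.0544.

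The 4 tested genes among the other receptors and binding proteins were called lower on the TPM scale and 3 of them after rescaling, against the 61.5% and 36.6% of all tested genes given above. Itgam and Itgb2, the chains of complement receptor 3, fell to 122 ± 9.82 and 114 ± 3.52 TPM in M1, against 184 ± 5.61 and 166 ± 8.42 TPM in M0, and remained lower after rescaling (log2 differences -0.24 and -0.20). Cd93, counted among both the 4 and the 3, passed the filter through M0 only, so its calls are a description. It had 0.549 ± 0.204 TPM in M1, against 1.70 ± 0.0789 TPM in M0. C1qbp, a mitochondrial protein first found by its binding to C1q, fell to 133 ± 3.49 TPM in M1, against 167 ± 6.15 TPM in M0, but the rescaled log2 difference was 0.03, of opposite sign and without a call.

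Inhibitors were few. Cr1l, which encodes Crry, a rodent membrane inhibitor of C3 activation, had 55.8 ± 1.80 TPM in M1 and 50.8 ± 3.17 TPM in M0. Its log2 difference of 0.14 had a limma adjusted p of 0.0401 on the TPM scale and was 0.48 after rescaling. Without M1 replicate 1, M1 replicate 2 or M0 replicate 3 the TPM-scale call was lost, with adjusted p of 0.127, 0.0953 and 0.182. It was also lost without the filter on low values (adjusted p = 0.0757) and with neither trend nor robust estimation in limma (adjusted p = 0.07). Clu, which encodes clusterin, fell to 5.01 ± 0.255 TPM in M1, against 7.11 ± 0.228 TPM in M0, and was not called after rescaling.

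The remaining 32 of the 47 did not pass the filter, and 9 of them were listed at 0 in every library. None of the 5 other alternative pathway genes passed, among them Cfd, with means of 0.128 TPM in M1 and 0.123 TPM in M0. Of 7 terminal pathway genes C8g was the one that passed, at 0.503 ± 0.121 TPM in M1 and 1.30 ± 0.254 TPM in M0 (log2 difference -0.61, with 20 reads in M1 and 47 in M0). The authors' deposited table did not call C8g (adjusted p = 0.134). The others, among them Hc, which encodes C5, reached at most 0.192 TPM. Serping1, the C1 inhibitor gene, is named after its values were seen. It had 0.329, 0.225 and 0.253 TPM in M1 and 0, 0.036 and 0 TPM in M0, or 24 reads in M1 and 1 read in M0, and the authors' deposited table called it higher (adjusted p = 0.00208). A limma fit without the filter, which gave a p-value to 38 of the 47, also called Serping1 higher (log2 difference 0.33, adjusted p = 2.83e-04). That fit called 2383 of 19232 genes higher and 7485 lower. As Serping1 was picked from the values of these same libraries, neither call is independent support.

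**Figure D4:**
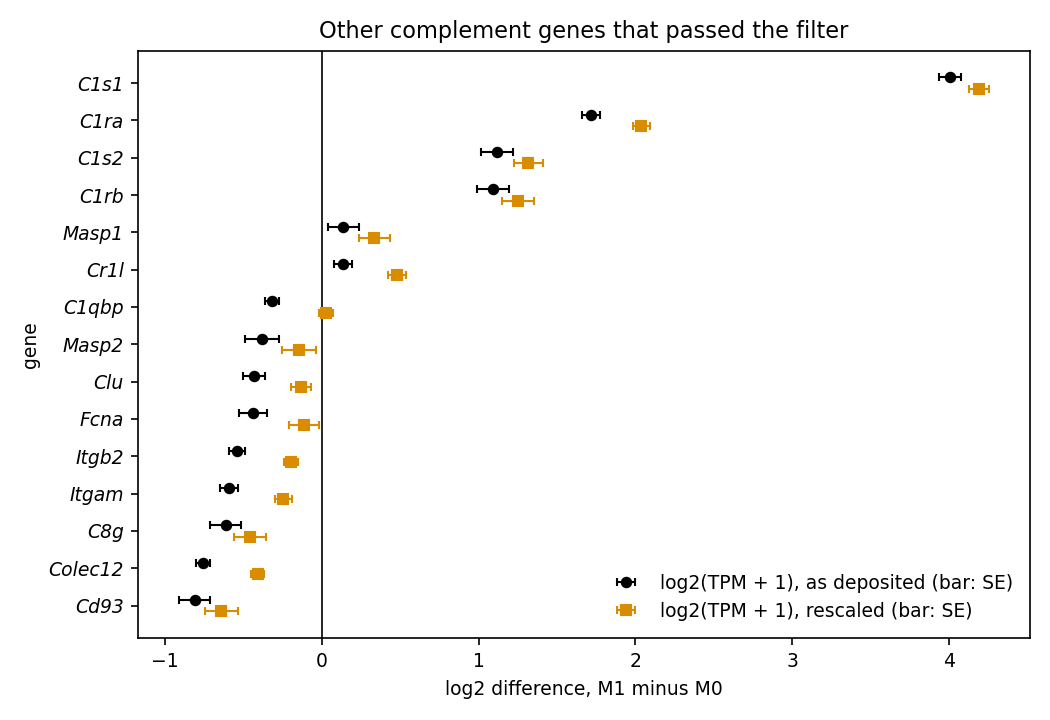
Log2 difference, M1 minus M0, with its SE for the 15 other complement genes that passed the filter, on the TPM scale as deposited (circles) and after rescaling (squares). C1s1 and C1ra stand highest, and the 2 scales fall on opposite sides of 0 for C1qbp.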

How the data were processed

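Poly(A) RNA of 6 samples of RAW264.7 cells was sequenced, per the labels' protocols. The authors deposited TPM per gene, per the file headers, and a second table of log2 values per sample (transform not stated), with the p-values and log2 fold changes of their own comparison, whose sign is M1 over M0 when set against those columns. Build mm10 and the tools STAR 2.7.5a, HOMER 4.11.1, bcl2fastq and DESeq2 are listed, without roles, in the submitters' processing notes. TPM times transcript length was a whole multiple of 1 value per library, within 0.1, for 99.79% to 99.99% of values above 0, which gave the reads behind each value. They cover counting error only.

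Group differences were fitted with limma 3.58.1 (R 4.3.3, trend and robust) on log2(TPM + 1). The 11297 genes fitted reached 1 TPM in 3 or more samples, with group as the only term, and called at a Benjamini-Hochberg adjusted p under 0.05 over all of them. The fit was tested on simulated data with known changes in a small part of the genes. That simulation held no shift of all genes as seen here, so it does not test calls under such a shift. The members and lists were chosen with earlier results of these data known. Genes named were the members, other complement genes called and differing at least 2-fold, the 4 most abundant tested ones, the highest one below the filter (not reported here), Nos2, Cxcl10, Irf1 and Tnf as a check of the treatment, and the 2 nearest profiles per member. Of the last 2 sets only some are printed. Other genes of the lists were named to account for their groups. Alternatives were another pseudocount, no filter, rescaled TPM, the deposited log2 columns, a replicate block, an ordinary empirical Bayes fit and leaving out each sample. Replicate pairs within a group differed by more than counting noise (chi-square divided by its degrees of freedom ran between 1.55 and 7.90), and each sample was counted once.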

Additional observations from a re-analysis of the deposited data

How the results depend on the processing

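Among the 9 members, 8 kept their direction and their call under all 12 alternatives tried. Cfb and C5ar2, whose calls are a description only, are among these 8. The share of all tested genes that did the same was not computed. As 80.2% of them were called on TPM as deposited, the count of 8 does not set the members apart. Cfp lost its call after rescaling (log2 difference -0.045, adjusted p = 0.452) and on the deposited log2 columns (-0.029, adjusted p = 0.617), both of which remove the shift of all genes between the groups. Under the same 2 alternatives, other complement genes called lower numbered 5 in each, against 9, all tested genes called higher numbered 4173 and 4152, against 2111, and those called lower 4131 and 3865, against 6944. Of all calls 23.3% were higher in M1 on TPM as deposited, 50.3% after rescaling and 51.8% on the deposited log2 columns. C1qbp changed sign there (0.028 and 0.044) without a call.

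Leaving out 1 sample gave log2 differences of 4.27 to 4.39 for C3, 4.10 to 4.16 for Cfb, -0.41 to -0.37 for Cfp, 0.49 to 0.53 for C1qa, 0.96 to 1.04 for C1qb, 0.59 to 0.69 for C1qc, 0.32 to 0.37 for C3ar1, -1.53 to -1.44 for C5ar1 and -0.93 to -0.85 for C5ar2. With 1 sample left out, the counts of called members stayed at 6 and 3. Equal replicate numbers did not deviate together (correlations of 0.071, -0.076 and 0.037 over genes). With the replicate number as a block, 2143 genes were called higher and 7016 lower, and 6 and 3 of the members. Depth limits Cfb in M0 and C5ar2 in M1, which rest on 22 and 37 reads over 3 libraries.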
